A study of Mus musculus with 9 samples.

Results

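Accessible chromatin of C57Bl/6 mouse dendritic cells, raised from bone marrow, was mapped by ATAC-seq, where Tn5 transposase cuts and tags DNA that nucleosomes leave free. The regions described here carried a peak in cells with the control vector of the overexpression arm, called mi8, and no peak in cells with any other vector. They were chosen by merging the peaks of 4 deposited peak lists on chromosomes 1 to 19 and X into 194733 regions and keeping those that overlapped a mi8 peak and no peak of the OE, LMP8 or HP109 list. The rule kept 19266 regions, called members below, which is 9.89% of all merged regions and 11.6% of the 166056 regions with a mi8 peak (exact binomial 95% interval 11.4 to 11.8%, counting error only). They are set against the 146790 mi8 regions that at least 1 other list shared. Because presence in the lists selected these regions, their number and the strength of their peaks are given as a description and not as a test.

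All groups shared the same culture, 9 days in 20 ng/mL GM-CSF, with retrovirus added on day 2 and cells sorted for the human CD8 reporter of the vector together with CD11c. The mi8 cells carried that control vector, the OE cells the vector with the Pcgf6 cDNA, the LMP8 cells the control vector of the knockdown arm and the HP109 cells the vector with a hairpin RNA against Pcgf6. Each vector had 2 libraries, to which the labels attach 1 joint peak list called against 1 input library, which came from mi8 cells. No spread between cultures can be had from joint lists, so no test between vectors was run, and intervals cover counting error alone. A member was thus called neither in the matched OE list nor in the list of the other control vector, and those lists give no value at it, since a peak list holds nothing below its threshold.

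Pcgf6 is a Polycomb group protein of a variant PRC1 complex, which places ubiquitin on histone H2A and is brought to DNA in part by the MGA and MAX proteins at E-box sequences. It is best known for keeping germline genes silent. Dendritic cells are the antigen-presenting cells that meet T cells, and on activation they raise costimulatory molecules, chemokines and their receptor for migration, and interferon-stimulated genes. Accessible sites outside promoters include enhancers, the distal elements that raise transcription.

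Markers of the labelled cell type were accessible. All 20 dendritic cell lineage genes had a peak within 1000 bp of a gene end in each of the mi8, OE, LMP8 and HP109 lists, against 14179 of all 21631 protein-coding genes in mi8, and the span of Itgax, which encodes CD11c, held 8 mi8 peaks. Such a mi8 peak was also found at 18 of 20 macrophage, 9 of 20 granulocyte and mast cell, 12 of 20 lymphoid, 10 of 16 erythroid and 11 of 16 stromal marker genes. The mi8 list held 170946 peaks, against 111488 in OE, 140716 in LMP8 and 170077 in HP109. Its genome-wide background at a summit was 1.947 reads, against 2.002 in OE, 1.423 in LMP8 and 1.355 in HP109. The mi8 background was thus 1.369 times that of LMP8 and 1.437 times that of HP109. These ratios are used below as ratios of depth, which holds only if reads were extended to the same length in each list.

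Of the 19266 members 283 touched a RefSeq promoter, and some of those promoters are printed as examples. They do not stand for the members as a set. RefSeq promoter sequences (GRCm38.p6, the assembly of mm10, 250 bases before to 50 after a gene start) are printed 5′ to 3′ along the gene, with the bases under the mi8-alone peak in capitals. Ms4a4c, a membrane protein gene of the Ms4a cluster, carried the strongest such peak on a promoter, Ggnbp1, a gametogenetin-binding protein gene, is shown because no other list had a peak at either of its ends, and Nkx1-1, a homeobox gene, because its covered stretch holds the E-box letters CACGTG.
Ms4a4c promoter, chr19:11407411-11407710, plus strand: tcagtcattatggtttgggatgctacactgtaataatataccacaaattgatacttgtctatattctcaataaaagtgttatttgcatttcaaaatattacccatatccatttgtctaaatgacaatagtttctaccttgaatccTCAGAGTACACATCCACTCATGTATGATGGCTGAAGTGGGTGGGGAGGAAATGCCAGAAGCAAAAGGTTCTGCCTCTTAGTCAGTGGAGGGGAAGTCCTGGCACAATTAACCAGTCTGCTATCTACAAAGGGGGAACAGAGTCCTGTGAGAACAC
Ggnbp1 promoter, chr17:27017785-27018084, plus strand: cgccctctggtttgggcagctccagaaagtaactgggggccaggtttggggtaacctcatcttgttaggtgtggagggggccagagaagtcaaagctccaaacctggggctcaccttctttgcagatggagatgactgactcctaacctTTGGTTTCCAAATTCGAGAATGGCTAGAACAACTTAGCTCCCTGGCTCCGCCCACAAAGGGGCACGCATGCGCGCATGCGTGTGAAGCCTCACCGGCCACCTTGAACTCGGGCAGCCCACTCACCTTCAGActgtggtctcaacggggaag
Nkx1-1 promoter, chr5:33434041-33434340, minus strand: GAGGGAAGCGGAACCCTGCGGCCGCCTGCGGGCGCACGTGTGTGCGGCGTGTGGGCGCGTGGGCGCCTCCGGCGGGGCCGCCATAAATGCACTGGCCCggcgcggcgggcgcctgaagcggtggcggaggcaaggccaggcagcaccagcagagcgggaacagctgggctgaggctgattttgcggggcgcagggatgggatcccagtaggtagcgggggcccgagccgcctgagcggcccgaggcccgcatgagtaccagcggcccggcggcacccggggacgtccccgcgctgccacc
The Ms4a4c peak reached 26 reads at its summit, 25 bases before the gene start, with a −log10 q of 18.8, and the Ggnbp1 peak reached 22 reads with a −log10 q of 11. A q is the peak caller's p-value after adjustment over the genome, so a larger −log10 q is a stronger peak. The Ms4a4c promoter held no CpG dinucleotide at all, against a ratio of observed to chance CpG of 0.415 for Ggnbp1 and 0.88 for Nkx1-1.

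A second set of sequences is shown because the letters TGAGTCA, the recognition site of AP-1 (the Fos, Jun and Batf family of factors), were, of 13 motifs searched, the one whose interval in promoters under mi8-alone peaks lay wholly above its share in all promoters. The lines give the part of each promoter that the mi8-alone peak covered, with TGAGTCA or its reverse complement in capitals. They are the 5 strongest peaks with such a match on promoters of genes that have a name rather than a model or clone number.
Ms4a14, chr19:11314405-11314536, minus strand: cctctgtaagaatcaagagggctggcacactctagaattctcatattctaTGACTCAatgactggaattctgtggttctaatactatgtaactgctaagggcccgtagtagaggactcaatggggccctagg
Pla2g2e, chr4:138877811-138877963, plus strand: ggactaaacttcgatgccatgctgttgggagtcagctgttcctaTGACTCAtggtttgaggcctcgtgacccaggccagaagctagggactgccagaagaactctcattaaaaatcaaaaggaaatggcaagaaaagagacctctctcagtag
Hdac7, chr15:97814817-97814920, minus strand: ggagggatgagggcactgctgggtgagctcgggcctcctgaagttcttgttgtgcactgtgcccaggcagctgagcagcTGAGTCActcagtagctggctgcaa
Slfn4, chr11:83175121-83175235, plus strand: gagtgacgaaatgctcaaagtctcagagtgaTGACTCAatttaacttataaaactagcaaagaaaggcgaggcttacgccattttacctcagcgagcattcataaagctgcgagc
Prok2, chr6:99726343-99726502, minus strand: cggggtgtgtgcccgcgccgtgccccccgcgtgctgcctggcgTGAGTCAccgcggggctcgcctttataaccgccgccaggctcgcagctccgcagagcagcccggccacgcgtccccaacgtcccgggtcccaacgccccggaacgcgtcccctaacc
Ms4a14 lies in the same cluster as Ms4a4c, Pla2g2e encodes a secreted phospholipase, Hdac7 a class II histone deacetylase, Slfn4 an interferon-inducible Schlafen protein of myeloid cells, and Prok2 a secreted prokineticin. Their peaks were weak to moderate, with a −log10 q of 8.41 for Ms4a14, 6.14 for Pla2g2e, 5.36 for Hdac7, 5.24 for Slfn4 and 4.52 for Prok2. Summit pileups were 16, 16, 17, 15 and 14 reads in that order. The nearest region of another list was 769 bp away at Ms4a14, 6274 bp at Pla2g2e, 1568 bp at Hdac7, 1503 bp at Slfn4 and 422 bp at Prok2.

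The mi8-alone regions were narrow and weak, as were the regions in each other list alone. Their median −log10 q was 4.292, with a range of 1.338 to 22.24, and 63.7% lay under 5. A median member was 126 bp wide, had 13 reads at its summit and a fold enrichment of 4.071 over background. Regions in the OE, LMP8 and HP109 lists alone numbered 2485, 4474 and 16532. Their median −log10 q was 4.601, 3.628 and 4.766, and their median width 129, 115 and 117 bp. The mi8 regions shared with 1, 2 or 3 other lists had a median −log10 q of 5.746, 9.353 and 32.95. The more lists held a region, the stronger its mi8 peak was. The median widths of these merged regions were 174, 224 and 394 bp. Such widths span the peaks of all lists in a region, so they grow by construction as lists are added. They are not widths of mi8 peaks, whose median over the whole mi8 list was 236 bp.

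The share of mi8 regions that stood alone fell steadily with strength. Of the mi8 regions with a −log10 q under 2, 59.7% were in no other list, against 1.83% in all lists. At a −log10 q of 4 to 5 the share alone was 35.9%, at 8 to 10 it was 9.57%, and at 15 to 20 it was 0.461%. Only 1 of 29346 regions between 20 and 40 stood alone, and 0 of 37742 above 40 did (exact 95% interval up to 0.00977%).

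**Figure D1:**
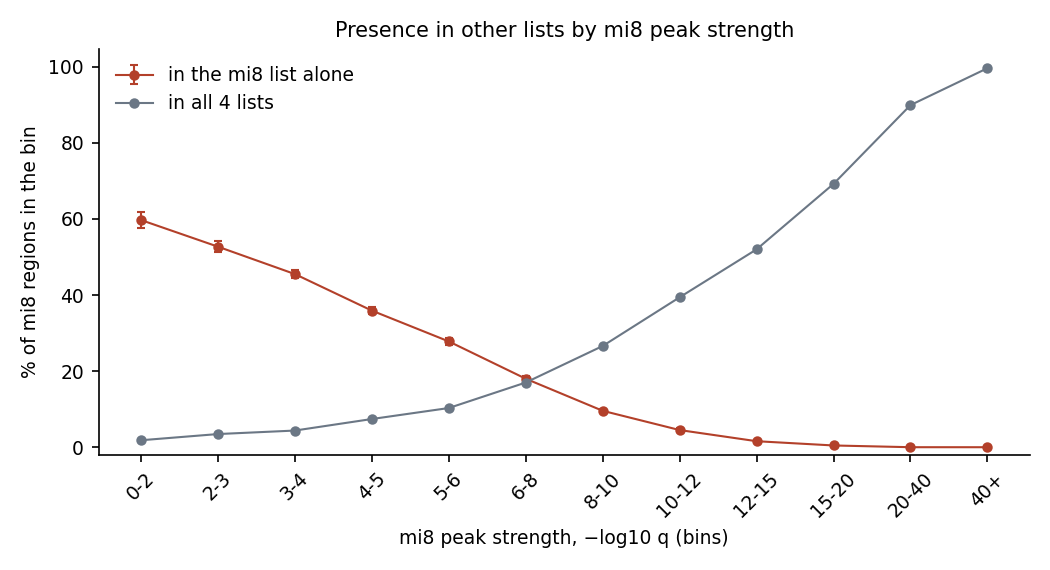
Share of mi8 regions found in the mi8 list alone (red, with exact 95% intervals) or in all 4 lists (grey), by bins of mi8 −log10 q on the horizontal axis. The mi8-alone share falls to 9.57% at 8 to 10 while the share in all lists reaches 99.6% above 40.

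The lists differed in depth, so the peaks were also read at the depth of the other lists. Scaled to the depth of LMP8, 90.7% of the mi8-alone peaks would still pass the lowest −log10 p of that list, and scaled to HP109, 85% would pass that of HP109. Both limits together left 16351 of 19266 peaks (84.9%). The pileups scaled here are those by which the peaks were called in mi8, and no counting error was added. These shares therefore cannot tell how many of the peaks would be called in a shallower list, which was not tested. At the edge of the rule, 85 members lay less than 10 bp from a region of another list, with a median −log10 q of 3.63, and 141 mi8 peaks were excluded for an overlap of 1 to 10 bp, with a median of 3.36.

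The strongest members lay in and near various genes; of all members, 49.3% lay inside a gene away from its ends. The first was in Spats2l, with 29 reads at the summit over a background of 1.95 and a −log10 q of 22.24, and the nearest region of another list was 120 kb away. Next came a peak 99 kb from 3110040M04Rik with a −log10 q of 19.92, which lay 94 bp from a region found in all lists, and a peak inside Mctp1, a calcium-binding membrane protein gene, at 18.8. Others among the first 10 had a −log10 q of 18.78, which the next member after them, 24.7 kb from Gnaq, also had. They lay inside Ifi204, a DNA-sensing protein gene of the interferon-induced Ifi200 cluster, Mesd, a chaperone of Wnt co-receptors, and Lix1, on the Ms4a4c promoter shown above, 52.6 kb from Armcx2, and 0.548 kb from the end of Oas1g, an interferon-induced oligoadenylate synthetase. Ifi204 and Oas1g are thus interferon-induced genes among the first 10.

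Members were scattered over the genome. Their share of mi8 regions ranged from 10.5% on chromosome 11 to 12.9% on chromosome 3, and across the 20 chromosomes it was lower where genes were denser (Pearson r −0.577, Spearman rho −0.497, a description over chromosomes of the same libraries). For 78.1% a region of another list came before the next member on either side. Members were 9.89% of merged regions, so most would stand singly by their number alone. The 3 longest runs of neighbouring members with nothing else between them were 8 members over 4.61 kb starting 0.949 kb past Atp2b1, 6 members over 2.83 kb in Mrnip and 6 members over 6.33 kb in Atp2b1, with another of 6 in Osbpl8.

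Gene ends were not favoured. Within 1000 bp of an end of a protein-coding gene lay 1737 members, 9.02% (interval 8.62 to 9.43%), against 13.8% of shared mi8 regions. To compare peaks of equal strength, the shared regions were also weighted to the strengths of the members, which gave 10.2%. At the 5′ end the shares were 5.3% of members, against 6.04% of weighted shared regions, and at the 3′ end 2.17% against 2.41%. Between genes lay 41.7% of members, against 37.8% of weighted shared regions, and over 100 kb from any gene 8.24%, against 6.94%. Members were thus somewhat more often distal than shared peaks of equal strength.

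They lay near regions of other lists about as often as shared peaks of equal strength did. A region of another list was within 1000 bp for 48.8% of members, against 48.3% of weighted shared regions, and the median distance was 1069 bp, against 1009 bp unweighted. For 55.8% of members the nearest such region was one found in all lists, against 52.2% of all regions with a peak of another list. Regions in the OE, LMP8 and HP109 lists alone were at a gene end in 7.85%, 13.1% and 7.46% of cases, and had a region of another list within 1000 bp in 39.5%, 62.9% and 43.7%. On both measures the mi8-alone regions lay between HP109 and LMP8.

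**Figure D2:**
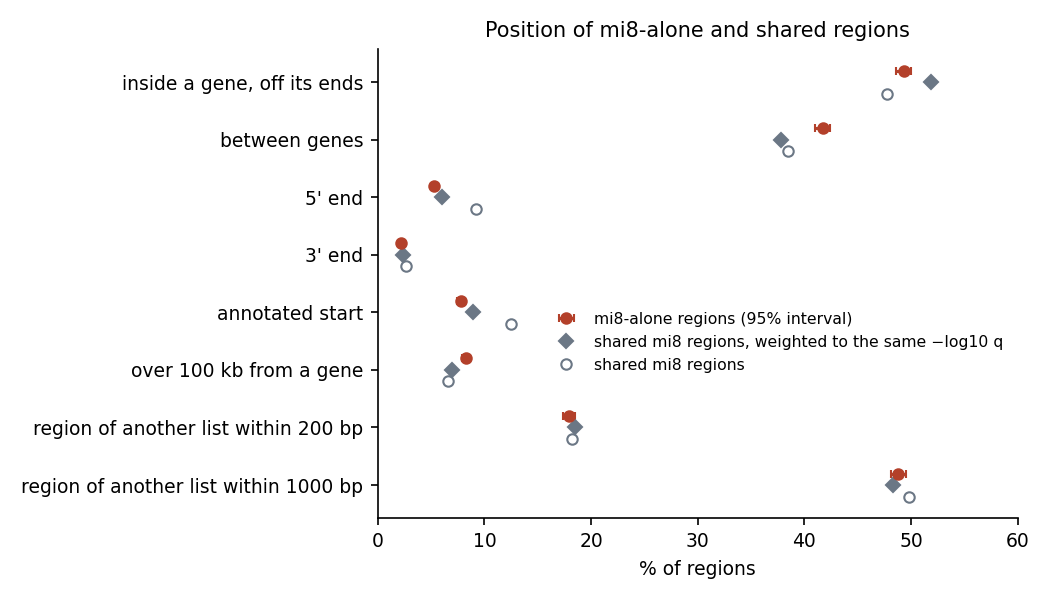
Percentage of regions at each position for mi8-alone regions (red, 95% intervals), shared mi8 regions weighted to the same −log10 q (diamonds) and all shared mi8 regions (open circles). The 5′ end holds 5.3% of mi8-alone regions, against 6.04% of weighted shared ones, and the stretches between genes hold 41.7%, against 37.8%.

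Some genes held many such peaks. Of 21631 protein-coding genes, 6143 (28.4%) held a member in their span, counted with 1000 bp on each side, and 3719 of them held just 1. At least 5 were held by 399 genes and at least 10 by 47. Atp2b1, which encodes a calcium pump of the plasma membrane, held the most: 41 of its 102 mi8 regions were members (40.2%). The span held 105 mi8 peaks, against 21 in OE, 67 in LMP8 and 68 in HP109. The members were the weaker peaks: with 20 kb on each side, the 57 members had a median −log10 q of 4.12 and a range of 1.55 to 14.5, against 8.65 for the other mi8 peaks there. Members gathered past the 3′ end, where 3 of the 5 widest of the genome lay, 736, 668 and 488 bp wide, the first with a −log10 q of 14.51. The other 2 lay in Shox2, 564 bp, and in Rin3, 478 bp.

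**Figure D3:**
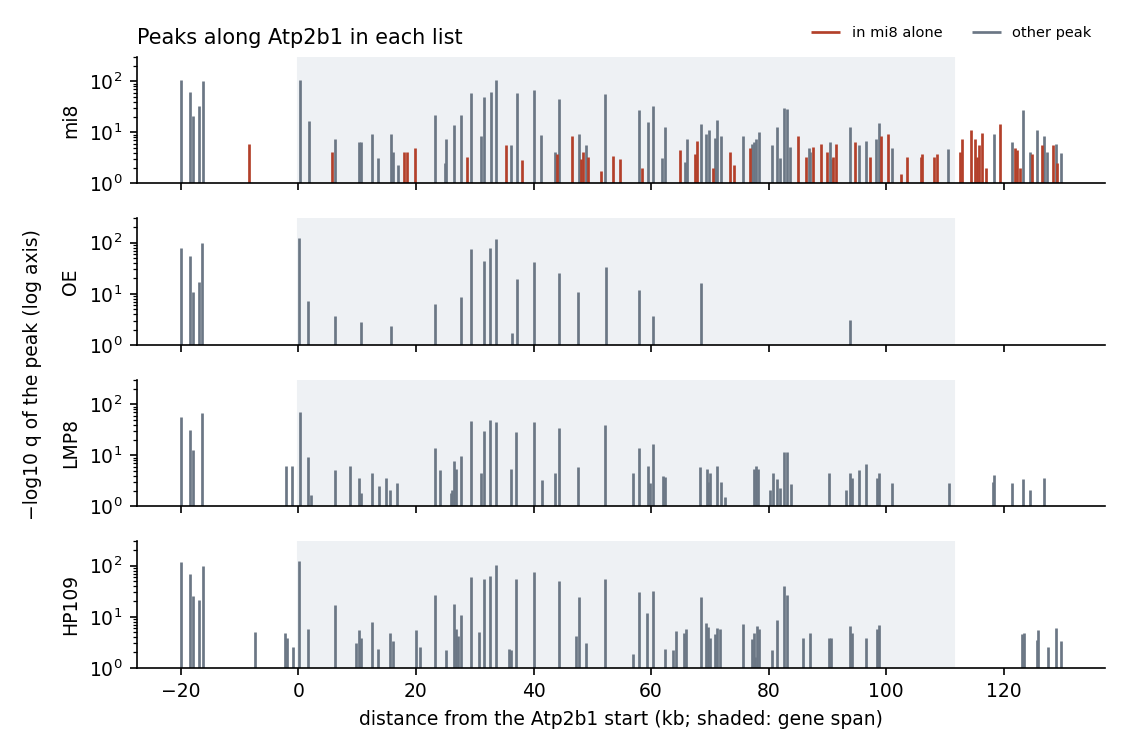
Peaks in and around Atp2b1 in the mi8, OE, LMP8 and HP109 lists, by distance from the gene start in kb, with −log10 q on a log axis and the gene span shaded. Members (red) number 57 of 135 mi8 peaks and crowd towards and past the 3′ end, where OE has no peak.

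Zeb2, a repressor needed for several dendritic cell lineages, came second with 25 of 105 mi8 regions (23.8%), and Cd44, an adhesion receptor that rises on activated cells, next with 24 of 77 (31.2%). The Cd44 span held 81 mi8 peaks, against 20 in OE, 62 in LMP8 and 64 in HP109. Osbpl8, an oxysterol-binding protein gene, held 23 of 87, and Pde4d, a cyclic AMP phosphodiesterase gene of 1300 kb, held 22 of 151. Macrod2, Fat3, Maml2, Rabgap1l and Foxp1 held 16 each, and these are long genes of 413 to 2000 kb with 13.9 to 22.2% of their mi8 regions alone. Per length, Atp2b1 had 36.8 members per 100 kb and Cd44 26.5, against 0.801 for Macrod2. Among genes with at least 8 mi8 regions the highest shares were those of Cdh3, a cadherin, with 6 of 9, Tmem132a with 7 of 13, Glp2r, the receptor of a gut hormone, with 10 of 19, and Chka, Dennd6b, Npas3 and Pcf11, which tied with 4 of 8 each. Cdh3 held 9 mi8 peaks, against 1 in OE, 2 in LMP8 and 6 in HP109, and Glp2r held 19, against 1, 11 and 12 in the same order.

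At gene ends, 1735 genes (8.02%) had a member, but most of these also had a peak of another list. A peak at an end in mi8, member or not, and none there in OE, LMP8 or HP109 was found for 250 genes (1.16%). Only genes whose end peak was a member were ranked. The strongest was Gbp10, an interferon-induced guanylate-binding protein gene, with a −log10 q of 17.66 and 25 reads. Next were Veph1 with 14.4, and Sspn, which encodes sarcospan of the dystrophin complex, with 12.79. Ccl5, a chemokine that draws T cells and monocytes, Cd209e, a C-type lectin of the DC-SIGN family, Dnaaf4 and Tomm20l followed with 11.31 each, then 9130409I23Rik and Ggnbp1 with 10.97 and Helt with 10.52. The Ccl5 peak lay 66 bp from the higher-coordinate end of the gene and had 19 reads, and the span held 1 mi8 peak, against 0 in OE, 0 in LMP8 and 0 in HP109. Gbp10 held 3 mi8 peaks, against 0 in OE, 1 in LMP8 and 0 in HP109.

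Interferon-stimulated genes held a higher share of members than regions of their strength over the genome, a difference that was not tested because the list was chosen with results of these data known. Of the 149 mi8 regions of 30 such genes 26 were members, 17.4% (interval 11.7 to 24.5%), where regions of the same mi8 strength over the genome would give 15, or 10.1%. The members fell on 16 of the 30 genes (53.3%), against 28.4% of all genes. All 30 had a mi8 region, against 16377 of all 21631 genes, so the 2 shares are not on a like footing. The same share was 60% in the macrophage list and 60% in the glycolysis and HIF list. In the remaining lists it ran from 15% for germline genes to 50% for dendritic cell lineage factors and stromal markers. Oasl1, an inhibitor of Irf7 translation, held 5 of its 7 mi8 regions, and without it the share was 14.8% (interval 9.39 to 21.7%), against 9.5% at the same strength, which lies inside that interval. Trim30a held 4 of 11, Ifit2 2 of 8 and Ifih1 2 of 14. Ifit1, Ifit3, Irf7, Rsad2, Gbp2 and Gbp3 held 0. With a −log10 q of at least 5 in every list the share was 18.5%, against 9.91% of all mi8 regions, but with the same number of peaks in each list it was 6 of 105 regions (5.71%), against 5.1%.

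Oasl1 shows the pattern at one gene. Its mi8 members lay 1819 to 8646 bp into the gene, with −log10 q values of 3.17, 7.92, 6.19, 4.91 and 4.44 and summits of 11 to 17 reads. The peak at the gene start had a −log10 q of 49.2 in mi8, against no peak in OE, 26.4 in LMP8 and 8.94 in HP109. Just upstream of it a further peak was in all lists, with 47.8 in mi8, 34.6 in OE, 33.6 in LMP8 and 52.8 in HP109. A peak 18931 bp past the start was also present in all lists, with 71.3 in mi8, 40.5 in OE, 46.4 in LMP8 and 73.1 in HP109. Between the peak at the gene start and that site only mi8 had peaks.

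Genes of migration and costimulation gave a mixed picture. Ccr7, the receptor that brings mature dendritic cells to lymph nodes, had 3 members in its span, out of 3 mi8 regions, with −log10 q values of 4.76, 6.16 and 3.18, against 0 OE peaks, 1 LMP8 peak and 0 HP109 peaks. A pair of peaks just outside the lower-coordinate end of Ccr7 was in all lists, at 17.9 and 11.2 in mi8, 2.2 and 2.56 in OE, 6.49 and 6.76 in LMP8 and 12.9 and 11.9 in HP109. Lamp3, a lysosomal protein of mature dendritic cells, had 2 members among 3 mi8 regions and Cd86, a ligand of CD28, 8 of 38, while Cd40, Cd80, Cd83, Icosl and Pdcd1lg2 had 0. For the 20 genes together 40 of 214 regions were members, 18.7%, where equal strength over the genome gives 17%. Cd44 supplied 24 of the 40, and without it the share was 11.7%, against 11.7% at equal strength.

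**Figure D4:**
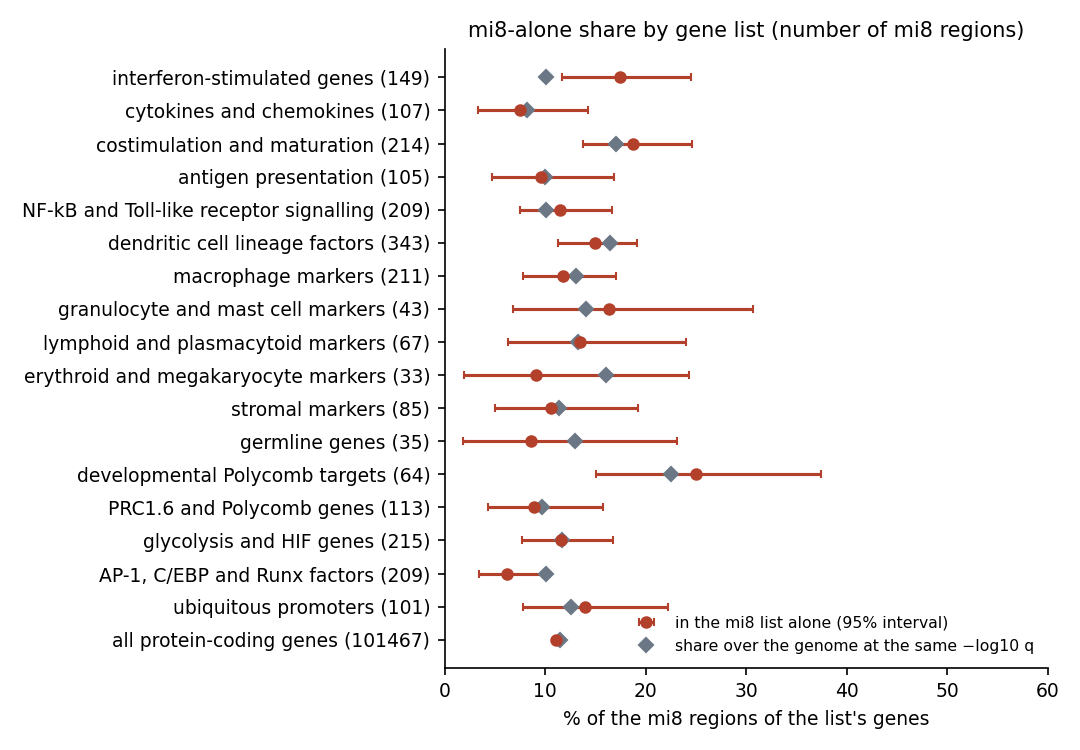
Percentage of the mi8 regions of each gene list that were in mi8 alone (red, exact 95% intervals) and the percentage over the genome at the same −log10 q (diamonds), with the number of mi8 regions in brackets. Interferon-stimulated genes stand at 17.4%, against 10.1%, and AP-1, C/EBP and Runx factor genes at 6.22%, against 10.1%.

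For the other gene lists, the share at the same strength lay inside the exact interval of the members' share. Developmental genes, classic Polycomb targets such as Pax3 and Lhx5, had the highest raw share, 16 of 64 regions (25%), against 22.5% at the same strength, with a median −log10 q of 6.7. Dendritic cell lineage factors had 51 of 343 (14.9%), against 16.4%, 25 of them in Zeb2. Antigen presentation genes had 10 of 105 (9.52%), against 9.97%, macrophage markers 25 of 211 (11.8%), against 13%, and genes of the Pcgf6 complex and other Polycomb genes 10 of 113 (8.85%), against 9.69%. Germline genes had 3 of 35 (8.57%), against 12.9%. Genes of the AP-1, C/EBP and Runx factors themselves had 13 of 209 (6.22%, interval 3.35 to 10.4%), against 10.1%. Cytokine and chemokine genes had 7.48%, against 8.19%, NF-kB and Toll-like receptor genes 11.5%, against 10.1%, glycolysis and HIF genes 11.6%, against 11.7%, and genes with ubiquitous promoters 13.9%, against 12.6%. Of the markers of other cells, granulocyte and mast cell genes had 16.3%, against 14%, lymphoid genes 13.4%, against 13.2%, erythroid genes 9.09%, against 16%, and stromal genes 10.6%, against 11.4%, from 33 to 85 regions each. All protein-coding genes together had 11.1%, against 11.5%.

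A member within 1000 bp of an end was found at 43 of the 358 list genes (12%), against 8.02% of all genes. In 6 of the 43 no other list had an end peak: Ccl5, Ccr7, the endothelial genes Cdh5 and Tek, and the developmental genes Lhx5 and Pax3. These are 6 of 358 list genes, beside 1.16% of all genes, where the mi8 end peak could be a member or not. The interferon group held Bst2, with a −log10 q of 8.022 at its 5′ end, Rtp4, Gbp5, Trim30a, Ifi44, Isg15 and Usp18, down to 1.338. Cytokine genes were Il27 with 5.561, Cxcl1, Il1a and Il10, beside Ccl5. Antigen presentation was represented by Cd74, the invariant chain of MHC class II, with 5.684, H2-Eb1 and Ctss, and costimulation by Tnfsf4. Macrophage genes were Fcgr3 with 6.962, C1qa, Cd68 and Fcgr1. The GM-CSF receptor genes Csf2ra and Csf2rb had 3.36 and 3.488. Others were Pf4 with 10.97, Gapdh with 6.139, Hdac1 with 6.041, Gata3, Wt1, Fos, Cd4, Pfkl, Ywhaz, Foxd3, Pfkp, Pdgfrb, Rel, Ezh2 and Kit.

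Promoters under members were poorer in CpG than promoters under regions of all lists. RefSeq promoters overlapped by a member and by no region of all lists numbered 285, of 264 genes, with a median CpG ratio of 0.403 and 53.7% G+C. Promoters under a shared mi8 region with a −log10 q below 10 had 0.504 and 57.3%, those under a region of all lists 0.767 and 61%, and those with no region 0.215 and 47.7%. All promoters together had 0.387 and 53%. A CpG ratio of at least 0.6 was found in 31.2% of the member promoters, against 71.6% of those under a region of all lists and 36% of all promoters. Of 1005 microRNA hairpins 5 (0.498%) lay under a member: Mir27a, Mir704, Mir1895, Mir345 and Mir6985. Of 32619 promoter entries 317 did. Hairpins under other mi8 regions were not counted, so the 5 are a description only.

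The AP-1 letters TGAGTCA, searched on both strands in 1 promoter a gene, were in 34 of 264 member promoters, 12.9% (interval 9.09 to 17.5%). Promoters under weak shared mi8 regions held them in 4.22% (2.84 to 6%), those under a region of all lists in 4.1%, those with no region in 5.96% and all 26794 in 5.19%. Among promoters with a CpG ratio under 0.6 the shares were 17.8% of 180 member promoters, against 6.22%, 8.53% and 6.23%. The related letters TGAATCA, which differ by 1 base, were in 1.89% of member promoters, against 3% of all. Of 36 distinct matches 22 lay inside the member and 18 within 50 bp of its summit.

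**Figure D5:**
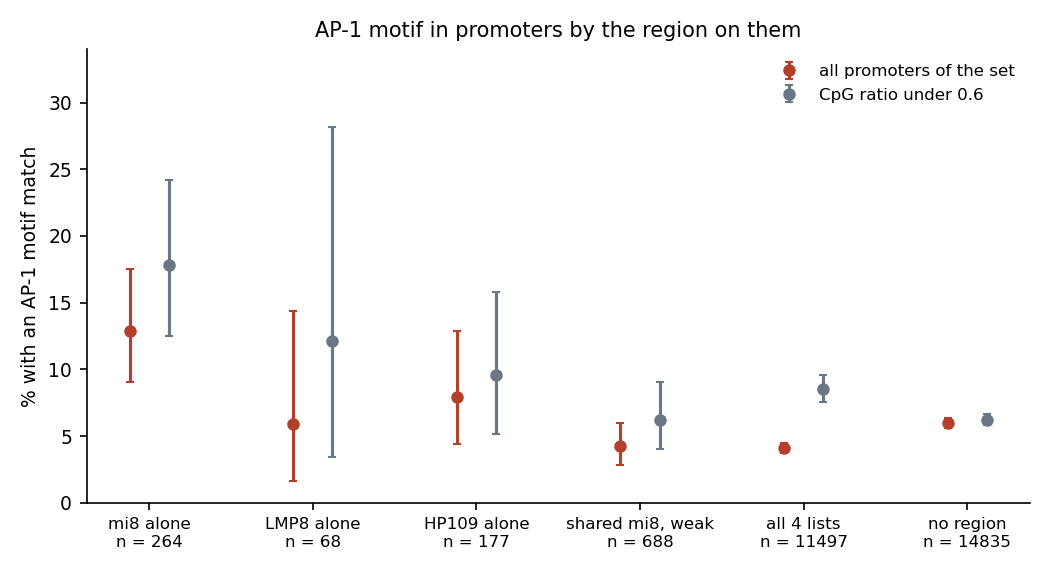
Percentage of promoters (1 a gene) that hold TGAGTCA on either strand, with exact 95% intervals, by the kind of region on them, for all promoters of a set (red) and those with a CpG ratio under 0.6 (grey). Member promoters stand at 12.9%, against 4.22% for weak shared regions and 7.91% for HP109 alone, whose interval overlaps.

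Counted per region, a match touched 22 of 283 members on promoters, 7.77% (4.94 to 11.5%). That interval holds the 5.49% of all promoters with each base counted once, and weak shared regions had 3.42% (2.33 to 4.82%). Counted per base, members covered 32576 promoter bases with 0.706 matches per kb, against 0.214 in weak shared regions and 0.184 over all promoter bases. Matches that only touch a region count there, which raises the rate most for narrow regions such as members. Regions of HP109 alone had 0.598 and those of LMP8 alone 0.447, from 12 and 3 matches. By promoter, HP109 alone gave 7.91% (4.39 to 12.9%), LMP8 alone 5.88% (1.63 to 14.4%) and OE alone 0 of 15 (up to 21.8%), and all 3 intervals overlap that of the members. Members with a −log10 q of at least 5 gave 10.3% (5.06 to 18.1%, which holds the 5.19% of all promoters) and weaker ones 14.4% (9.43 to 20.6%). The share also depended on which peaks entered: with a −log10 q of at least 5 required in every list it was 8.47% of 236 member promoters, and with the same number of peaks in each list 8.74% of 103, against 5.19% of all promoters.

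For the other 11 motifs the interval in member promoters held the share in all promoters, and for the rare ones it was wide. The E-box CACGTG of MGA and MAX was in 5.68% of member promoters, against 7.3% of all promoters, and the interferon response letters GAAANNGAA in 9.09%, against 8.54%. The ETS core GGAAGT was in 22.3%, against 24.2%, the C/EBP letters TTGCNNAA in 9.09%, against 10.8%, and the Runx letters TGTGGTT in 6.82%, against 5.4%. The NF-kB letters GGGANTTTC were in 0.758%, against 1.16%, the GATA letters AGATAA in 11.4%, against 11.4%, and the SP and KLF core GGGCGG in 36.7%, against 36.2%. E2F (GGCGGGAA) gave 1.14% (0.235 to 3.28%), against 2.26%, the PU.1 letters GAGGAAGT, which contain the ETS core, 3.41%, against 3.3%, and the CRE TGACGTCA 1.14%, against 1.89%. A match says only that the letters are present.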

How the data were processed

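ATAC-seq libraries numbered 9, 2 for each of 4 vectors and 1 input. Per the submitters' processing notes, the tools were BWA, Picard and MACS2, and the build was mm10. The sources used here do not give versions, thresholds, read shifting or what the downsampling named in the labels was. As deposited, the score is the −log10 q times 10 as a whole number, the fold is a ratio of summit pileup to local background, and the −log10 p and −log10 q are those of the peak caller, as deposited. Peak values are the authors' own throughout. Pileups and backgrounds were recovered from fold and −log10 p (100% of peaks within 0.001). Overlap meant at least 1 bp. Gene positions, promoters and hairpins came from RefSeq tables of GRCm38.p6, matched by coordinates; 358 of 359 list genes were found by symbol. Peaks on other chromosomes (34 in mi8) were left out. The table gives strand for 17274 of 21631 genes, so ends are either end unless 5′ or 3′ is stated. Shared regions were weighted to member −log10 q in 20 bins. Named genes were the 10 strongest members, the 10 gene ends with the strongest members and no other list's peak, and the 10 spans with most members. Also named were the 5 spans with the highest share, list genes with a member at an end, and the 5 widest members and 3 longest runs. Members, lists and naming rule were chosen with earlier results of these data known; the split of the AP-1 letters, and the lists without Oasl1 or Cd44, were chosen after their values were seen. Python 3.11.15, pandas 2.3.3 and scipy 1.17.1 were used, and the overlaps were checked on simulated intervals against bedtools 2.31.1. Sequence of members outside promoters was not used here. A few genes that the naming rule picked are not reported here.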

Additional observations from a re-analysis of the deposited data

How the results depend on the processing

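The number of mi8-alone regions was 12674 with the other lists extended by 500 bp on each side. It was 679 with mi8 peaks of −log10 q of at least 10 only, and 5579 with 111488 peaks in each list. It stayed within 1.5 times 19266 under the other 4 settings (13685 to 23368). Among these, mi8 peaks without merging gave 19266 by construction. Scaling to the depth of LMP8 and HP109 could only remove members and gave 16351. The share at a gene end was 8.24% with a −log10 q of at least 5 in every list, 5.15% at 10, 6.99% with equal lists, 4.35% and 18.1% with windows of 500 and 2500 bp, and 7.79% at annotated starts. The share within 1000 bp of another list's peak was 41%, 39.9% and 37.4% under those first 3 settings. Genes with an end peak in mi8 alone numbered 129 with equal lists and 233 to 271 otherwise. Member promoters with TGAGTCA came to 8.47% of 236 at −log10 q of at least 5 in every list, 8.74% of 103 with equal lists and 0 of 11 (0%) at 10, against 12.9%, and 12% with the summit in the promoter. The interferon share was 18.5%, 1.96% and 5.71% at 5, 10 and equal lists, against 9.91%, 0.663% and 5.1% of all mi8 regions. The settings for TGAGTCA, annotated starts and the interferon share, and the limit of 5 for the shares at a gene end and near another list's peak, were chosen after seeing the data. Apart from window width and annotated starts, these settings act by construction through which peaks are kept. No paired analysis was possible because the 2 libraries of a vector share 1 list, and no replicate could be left out.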
